A study of Rattus norvegicus with 24 samples.

Results

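The 4 arrays of 1,2,3-trichloropropane, a chlorinated 3-carbon alkane that the design counts among the carcinogens, were examined here out of 24 arrays of rat liver. They were taken by their compound label. Each array set the liver RNA of 1 male F344 rat, an inbred laboratory strain, gavaged daily for 28 days with 50 mg/kg/day in corn oil (5 ml/kg), against pooled RNA of vehicle-treated rats, and the labels give 4 control rats for the pool. The rats were 5 weeks old by their label and are numbered 1 to 4 as in the titles. On the other 20 arrays the rats were also 5 weeks old by label and gavaged for 28 days at 5 ml/kg. Those arrays held 4 rats for each of 5 compounds. Of these, 1,2-dichlorobenzene was given at 300 mg/kg/day, and the dose of 1-amino-2-methylanthraquinone was 150 mg/kg/day. Rats on 3-(4-chlorophenyl)-1,1-dimethylurea received 250 mg/kg/day and rats on hexachloroethane 500 mg/kg/day, all in corn oil, while tetracycline hydrochloride was given at 1000 mg/kg/day in water. Treated RNA carried Cy3 and vehicle RNA Cy5 on every array, with no dye swap, so a dye effect stays in each ratio against vehicle.

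Halogenated alkanes of this kind are oxidised in the liver by cytochromes P450 and conjugated to glutathione by glutathione transferases. Some of the resulting metabolites are electrophiles that bind to DNA and protein. Electrophiles also release the transcription factor Nrf2 from its inhibitor Keap1, and Nrf2 then acts at the antioxidant response element of genes for glutathione transferases, reductases and conjugating enzymes. The liver is besides a main site of gluconeogenesis, amino acid degradation and plasma protein secretion.

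The largest increase among genes with a symbol was that of Gsta3, a subunit of the alpha class of glutathione transferases, which was measured by 2 probes of unlike sequence. The array probes are 60 bases long, and those of this family resemble one another, so the sequences show what each ratio was measured with. The Gsta3 probe named Yc2 by the array design is paired with the Gsta5 probe, and the Gsta3 probe named by its RefSeq record with the Gsta1 probe. Capitals mark the bases that differ from the partner in an alignment without gaps, 5′ to 3′.
Gsta3 (Yc2 probe): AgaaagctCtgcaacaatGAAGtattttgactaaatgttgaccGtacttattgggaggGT
Gsta5: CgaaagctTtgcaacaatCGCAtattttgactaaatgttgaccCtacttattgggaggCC
Gsta3 (RefSeq record probe): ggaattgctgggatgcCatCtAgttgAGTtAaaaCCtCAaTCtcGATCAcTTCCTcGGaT
Gsta1: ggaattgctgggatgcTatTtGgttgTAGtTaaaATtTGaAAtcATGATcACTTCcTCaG

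The Yc2 and Gsta5 probes shared 51 of 60 bases, and the other pair shared 34 of 60. On the RefSeq record probe of Gsta3, the brighter of the pair, the log2 ratios of treated over vehicle RNA in rats 1 to 4 were 5.24, 4.24, 4.18 and 4.66. The Yc2 probe of Gsta3 gave 3.33, 2.59, 2.60 and 2.92. Both lay far above 0 in all rats, with rat 1 highest, although they differed in size. The Gsta5 probe gave 0.96, 0.61, 0.55 and 0.61 and the Gsta1 probe 0.83, 0.44, 0.34 and 0.43, also with rat 1 highest. How far RNA of 1 family member binds the probe of another was not tested.

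The antioxidant response core was searched as TGACNNNGC, and the C/EBP-ATF response element of amino acid starvation as TGATGNAAT, on both strands of RefSeq promoter windows (GRCr8, 250 bases before to 50 after the start of the gene). Windows of 3 genes called higher are shown because they hold these letters, which stand in capitals. The Gsta3 window lies at chr9:31154739-31155038 on the + strand. The Gstp1 window lies at chr1:210769656-210769955 on the - strand, and that of Fgf21 at chr1:105221327-105221626 on the - strand. A second window listed for Gsta3 held no match.
Gsta3: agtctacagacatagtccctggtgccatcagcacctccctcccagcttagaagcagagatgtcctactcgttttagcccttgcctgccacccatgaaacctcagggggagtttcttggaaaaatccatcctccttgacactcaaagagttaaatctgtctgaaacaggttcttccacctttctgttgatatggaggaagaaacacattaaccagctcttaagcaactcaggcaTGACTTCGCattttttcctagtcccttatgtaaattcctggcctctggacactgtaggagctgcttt
Gstp1: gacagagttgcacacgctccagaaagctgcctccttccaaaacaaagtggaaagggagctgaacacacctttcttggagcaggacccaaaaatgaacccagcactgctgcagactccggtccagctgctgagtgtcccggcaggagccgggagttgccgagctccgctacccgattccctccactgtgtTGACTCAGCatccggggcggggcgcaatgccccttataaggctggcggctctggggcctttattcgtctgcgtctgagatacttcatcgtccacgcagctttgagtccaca
Fgf21: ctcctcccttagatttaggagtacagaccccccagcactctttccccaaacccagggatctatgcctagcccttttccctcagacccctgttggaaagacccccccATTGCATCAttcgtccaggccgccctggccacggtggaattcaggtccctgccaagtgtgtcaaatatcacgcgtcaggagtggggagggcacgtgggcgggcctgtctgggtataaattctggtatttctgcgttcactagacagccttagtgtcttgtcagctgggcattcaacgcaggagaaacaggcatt

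Of 33469 promoter windows, 12.1% held TGACNNNGC and 1.09% held TGATGNAAT. Among the genes called higher, 21 had a window, and TGACNNNGC was in those of Gpx2, Gsta3, Gstp1, Mt1 and Phgdh, 5 of 21. Among the genes called lower it was in 10 of 34. TGATGNAAT, read on the opposite strand in Fgf21, was found for 1 of the 21 genes called higher and for 2 of the 34 called lower. A gene counted if any of its windows matched, while the percentages count single windows, so the 2 measures differ. These matches describe the letters only.

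From 61.6 to 65.0% of the 21900 probes passed the scanner's background test for treated RNA, and from 67.7 to 70.1% for vehicle RNA. Probes of the same sequence under different names differed by a median of 0.025 in log2 ratio over 537 pairs. The 4 rats correlated with one another between 0.60 and 0.82 (Pearson, across 11603 genes, which are not independent replicates). All 9 hepatocyte markers measured, of 10 listed, were above background in both channels on every array. The 4 arrays shared 1 slide and 1 scan day that held no other compound, so slide, day and compound cannot be told apart. The small number of arrays limits the precision, and the pool counts as 1 vehicle sample whose own spread is left out.

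The first question was which liver genes differed from vehicle after trichloropropane. Conjugating enzymes, an aldehyde reductase and aldehyde dehydrogenases led the increases, and Inmt and enzymes of amino acid degradation led the decreases. Genes passing limma's Benjamini-Hochberg adjusted p of 0.05 with a mean change of at least 2-fold (1 on the log2 scale) over the 4 rats are those called here. This gave 108 of 11603 genes (0.931%), 34 higher (0.293%) and 74 lower (0.638%), and 64 of them had a usable symbol. All 4 rats lay on the same side of 0 for 33 of the 34 genes called higher and 73 of the 74 called lower. In every rat the change was at least 2-fold for 15 and 23 of them. The adjusted p alone was passed by 5299 genes (45.7%), 2407 higher (20.7%) and 2892 lower (24.9%), so the fold limit decided most calls. Nearest to that limit, the smallest called changes were 1.00 and -1.01, against 0.99 and -0.98 for the largest that passed the p but were not called.

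Other ways of making the ratios moved these counts. The scanner software's own ratio called 101 genes higher and 188 lower, and the series table called 93 higher and 189 lower. Centring each array on its median in place of loess put the median of all genes at -0.27, against -0.02, and called 36 higher and 410 lower. Of the 108 genes, 106, 106 and 93 were also called under these 3 alternatives, and none changed sign there. Under median centring Asns, Ugt2b1, Ptgr1, Nqo1, Fmo5 and Mcm3 were no longer called, at values between 0.53 and 0.87. A test against the fold limit itself (limma treat) called 11 higher and 5 lower.

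**Figure D1:**
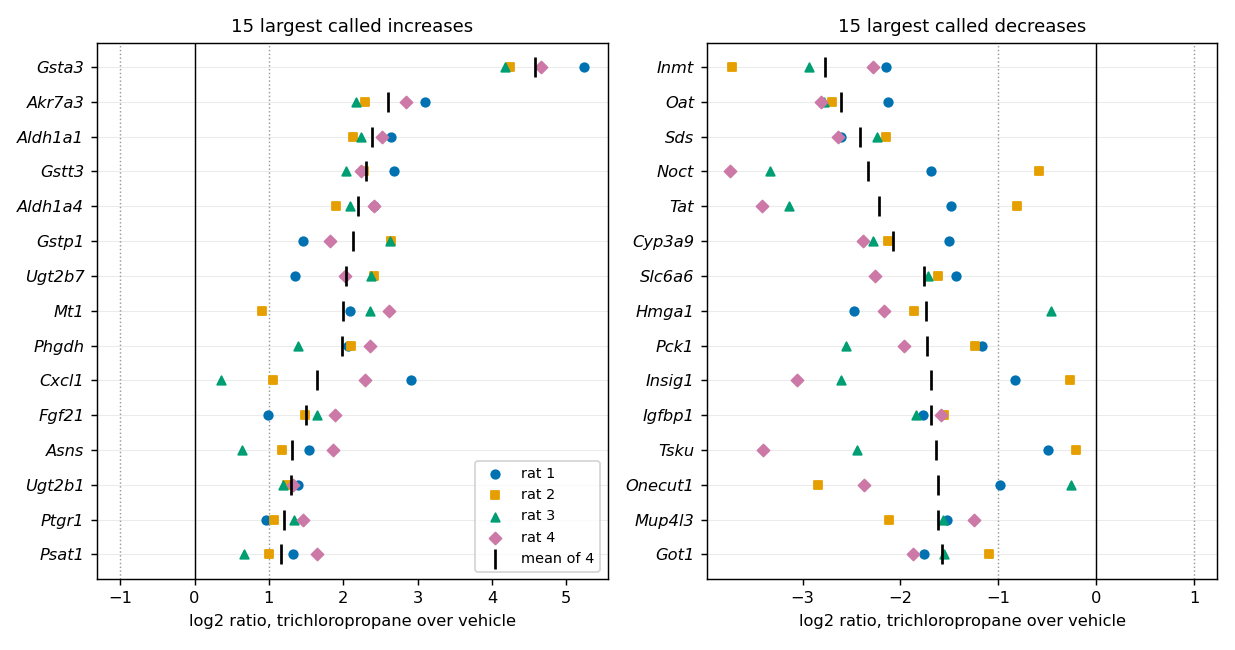
Log2 ratio of trichloropropane over vehicle (x axis) for the 15 largest called increases and the 15 largest called decreases with a symbol and the same sign in all rats; each marker is 1 rat, the black bar is the mean of 4, and dotted lines mark 2-fold. Gsta3 lies beyond 4 in every rat, the rats lie close together for Ugt2b1 and Igfbp1, and Tsku, Insig1, Tat and Noct are far lower in rats 3 and 4 than in rats 1 and 2.

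Of 17 measured glutathione transferases among 26 listed, 3 were called higher and none lower. For this list and every later one, the shares of all genes called were 0.293% higher and 0.638% lower. All genes include those without a symbol, while the lists hold named genes. Of the 11603 genes 4737 had a symbol, and a usable one was held by 23 of the 34 called higher and 41 of the 74 called lower. The median of the glutathione transferases was 0.30, against -0.02 over all genes. Gsta3 averaged 4.58 ± 0.49 (SD, n = 4), a 23.9-fold increase (limma adjusted p = 1.95e-10). Gstt3, of the theta class, had log2 ratios of 2.68, 2.28, 2.04 and 2.24 in rats 1 to 4 (adjusted p = 4.51e-11). Gstp1, the pi-class enzyme used as a marker of altered hepatic foci in rats, had 1.46, 2.64, 2.62 and 1.81 (adjusted p = 7.04e-10). Rat 1 was thus highest for Gsta3 and Gstt3 and lowest for Gstp1. The other Gstp1 sequences on the array averaged 1.89 and 1.79, again with rat 1 lowest, and the array design names some of these probes Gstp2, so close copies of the gene cannot be told apart. Among the 14 members not called, Gstm1, of the mu class, had 0.75, 0.82, 0.91 and 0.83, a narrow range under the fold limit. Mgst1, a microsomal member, was at -0.45 ± 0.04.

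Of 21 measured genes of glutathione supply, none was called higher and 1 lower. That gene was Slc6a6, the taurine transporter, with -1.44, -1.62, -1.72 and -2.26 (mean -1.76, adjusted p = 3.47e-07), lowest in rat 4. Gclc and Gclm, the catalytic and modifier subunits of the rate-limiting enzyme of glutathione synthesis, were at 0.07 ± 0.10 and 0.18 ± 0.12 (limma adjusted p = 0.6 and 0.232). Gsr, glutathione reductase, was at 0.57 ± 0.06. Mat1a, which makes S-adenosylmethionine, was at -0.93 ± 0.21, and Cbs, which starts the transsulfuration of homocysteine, at -0.55 ± 0.06; both passed the adjusted p and stayed short of 2-fold.

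Among 23 measured reductases and detoxification genes under Nrf2, 4 were called higher and none lower, with a list median of 0.19. Akr7a3, the aflatoxin aldehyde reductase of rat liver, had 3.101, 2.29, 2.17 and 2.84 (mean 2.60, adjusted p = 5.26e-11), a 6.07-fold increase. Ptgr1, a reductase of alkenals and prostaglandins, had 0.96, 1.06, 1.33 and 1.45. Akr7a3 was highest in rat 1 and Ptgr1 lowest there. Gpx2, the gastrointestinal glutathione peroxidase, had 1.10, 1.27, 1.16 and 0.95, and Nqo1, a quinone reductase, had 1.45, 0.96, 0.80 and 0.92. Rat 1 lay under 2-fold for Ptgr1, rat 4 for Gpx2, and rats 2 to 4 for Nqo1. Nqo1 was not called without rat 1 (0.89), and Gpx2 was not called with the probes of a gene averaged (0.61). The second Gpx2 sequence in that average was not above background in either channel of any rat. Of the 23 genes, 14 lay above 0 and 9 below. The adjusted p alone was passed by 10 in the higher direction and 5 in the lower, where 20.7% and 24.9% of all genes did. Among the members below vehicle, Txnrd1, a thioredoxin reductase, was at -0.39 ± 0.13 and Hmox1, heme oxygenase, at -0.37 ± 0.27. Srxn1, sulfiredoxin, was near 0 at -0.09 ± 0.07. Nfe2l2, the gene of Nrf2 itself, was at 0.54 ± 0.39, short of 2-fold.

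Aldehyde dehydrogenases went both ways. Aldh1a1, a cytosolic retinal dehydrogenase, had 2.65, 2.13, 2.24 and 2.52 (mean 2.38, adjusted p = 6.48e-10), and the related Aldh1a4 had 2.42, 1.91, 2.09 and 2.41 (mean 2.20, adjusted p = 4.12e-09). All 4 rats were well above 2-fold for this gene pair, and rat 2 was lowest for each. A second Aldh1a4 sequence was not above background in the vehicle channel of any rat. The mitochondrial Aldh1b1 fell, with -1.08, -0.92, -0.90 and -1.50 (mean -1.10, adjusted p = 6.22e-07). It was lowest in rat 4, without which it was not called (-0.97). A second Aldh1b1 sequence gave -0.22, -0.24, -0.20 and -0.38, and with the probes of the gene averaged it was not called (-0.81). Of the 14 measured genes of the aldehyde and alcohol dehydrogenase list, 12 were not called, among them the mitochondrial Aldh2 at -0.67 ± 0.03.

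Of 21 measured genes of glucuronidation, sulfation and ester hydrolysis, 2 were called higher and 1 lower. Ugt2b7, a glucuronosyltransferase, had 1.35, 2.41, 2.37 and 2.02 (mean 2.04, adjusted p = 7.36e-11), with its vehicle channel above background on at most 3 of 4 arrays by any of its probes. Ugt2b7 against vehicle stood at 3.70 by the scanner's ratio and 3.62 in the authors' series table. Ugt2b1, of the same family, had 1.40, 1.25, 1.19 and 1.33 (mean 1.29 ± 0.09, adjusted p = 5.62e-09). Sult1e1, the estrogen sulfotransferase, had -0.99, -1.74, -1.55 and -1.48 (adjusted p = 1.6e-07). Rat 1 was thus lowest for Ugt2b7, highest for Ugt2b1, and nearest to 0 for Sult1e1.

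Of 40 measured cytochromes P450 and related oxidoreductases, 1 was called higher and 1 lower, with a median of -0.01. Cyp3a9, which the array design names Cyp3a13, had -1.51, -2.13, -2.28 and -2.38 (mean -2.08, adjusted p = 9.17e-07). Fmo5, a flavin monooxygenase, had 1.37, 0.75, 0.89 and 1.18 (mean 1.05), and was not called without rat 1 (0.94). Rat 1 was thus nearest to 0 for Cyp3a9 and farthest from it for Fmo5. Cyp2e1, which oxidises small halogenated solvents, was at 0.14 ± 0.27 (limma adjusted p = 0.363). Cyp2c11, the male-specific P450 of rat liver, was at -0.53 ± 0.08, past the adjusted p and under 2-fold.

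Genes of serine and asparagine synthesis rose, and 4 of the 24 measured genes on the wider amino acid response list were called higher and 1 lower, with a median of 0.12. Phgdh and Psat1 encode enzymes of serine synthesis. Phgdh had 2.06, 2.11, 1.39 and 2.35 (mean 1.98, adjusted p = 4.09e-06) and Psat1 had 1.33, 1.00, 0.66 and 1.64 (mean 1.16). Asns, asparagine synthetase, had 1.54, 1.17, 0.64 and 1.86 (mean 1.30), and its second sequence 0.65, 0.55, 0.27 and 1.24. In all 3, rat 4 was highest and rat 3 lowest, and Psat1 was not called without rat 4 (0.997). Fgf21, a hepatic hormone of the fasting and stress response, had 0.99, 1.49, 1.64 and 1.89 (mean 1.50, adjusted p = 0.000766), with rat 1 lowest and rat 4 highest. Its second sequence gave 0.58, 0.98, 1.10 and 1.35, in the same order, and a called probe with no gene name here shared 55 bases with a Fgf21 probe. Ddit3, Trib3 and Atf3, further targets of the same stress pathway, were at -0.14 ± 0.12, 0.22 ± 0.14 and 0.12 ± 0.27. Cebpb, a transcription factor, was called lower (mean -1.01), with -0.49, -0.18, -1.50 and -1.88 in rats 1 to 4. Rats 3 and 4 were lowest, and it was not called without rat 3 (-0.85) or rat 4 (-0.73).

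Mt1, a metallothionein, had 2.09, 0.91, 2.36 and 2.62 (mean 1.99 ± 0.75, adjusted p = 4.28e-06) and was the 1 called member among 13 measured genes of metal and iron handling. Rat 2 was lowest, well below the other 3. A second Mt1 sequence gave 0.47, -0.38, 1.41 and 1.66, with the same order of rats and a value below 0 in rat 2. The treated channel of that sequence was above background in 3 of 4 rats.

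Amino acid degradation and gluconeogenesis gave the most called decreases of any list, 7 of 34 measured, with none called higher and a list median of -0.13. Sds, serine dehydratase, had -2.61, -2.14, -2.24 and -2.64 (mean -2.41, adjusted p = 2.95e-06). Got1, the cytosolic aspartate aminotransferase, had -1.76, -1.10, -1.56 and -1.87 (mean -1.57). G6pc1, the catalytic subunit of glucose-6-phosphatase, had -1.51, -1.12, -1.14 and -1.09 (mean -1.21). All 4 rats were at least 2-fold lower for these 3 genes. Pck1, the cytosolic phosphoenolpyruvate carboxykinase, had -1.17, -1.24, -2.56 and -1.96 (mean -1.73, adjusted p = 0.000727), with rats 3 and 4 lowest, and its second sequence gave -0.49, -0.53, -1.75 and -1.24 in the same pattern. Slc25a25, a mitochondrial carrier, had -0.79, -0.47, -1.75 and -1.88 and was not called without rat 4, its lowest value. Pck2, the mitochondrial form of the carboxykinase, was at 0.67 ± 0.20 and Pc, pyruvate carboxylase, at 0.40 ± 0.11, both above vehicle and short of 2-fold. Tat and Igfbp1, the other called members, are described with the spread between rats.

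Genes of hepatocytes around the central vein held 2 called decreases among 18 measured. Inmt, an indolethylamine methyltransferase, had -2.15, -3.72, -2.94 and -2.28 (mean -2.77, adjusted p = 1.04e-06), and a probe of an unnamed record had -2.34, -3.88, -3.07 and -2.41. Oat, ornithine aminotransferase, had -2.13, -2.70, -2.78 and -2.81 (mean -2.60, adjusted p = 3.81e-07). Rat 2 was lowest for Inmt and the unnamed record, and rat 1 stood nearest to 0 for all 3. Glul, glutamine synthetase, which marks the innermost of these cells, was at -0.04 ± 0.10, and Slc1a2, a glutamate transporter, at -0.92 ± 0.24. Fewer cells of a type and less RNA per cell cannot be told apart in bulk liver.

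No urea cycle gene reached 2-fold, yet 6 of 8 measured passed the adjusted p in the lower direction, where 24.9% of all genes did. The medians of the 8 genes were -0.58, -0.34, -0.49 and -0.82 in rats 1 to 4, lowest in rat 4. Cps1, carbamoyl phosphate synthetase, had -0.72, -0.57, -0.79 and -0.97. Asl, argininosuccinate lyase, had -0.58, -0.50, -0.56 and -0.65. Otc, ornithine transcarbamylase, was at 0.11 ± 0.09, the 1 member above 0.

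Of 40 measured plasma protein and apolipoprotein genes, 3 were called lower and none higher. The adjusted p alone was passed by 26 in the lower direction and 1 in the higher, where 24.9% and 20.7% of all genes did. Their median was -0.25. Serpina1, alpha-1-antitrypsin, had -1.22, -0.99, -0.99 and -1.03 (adjusted p = 3.92e-10), and was not called with the scanner ratio (-0.77). Apoa4, an apolipoprotein of triglyceride transport, had -1.23, -0.57, -1.37 and -1.42, nearest to 0 in rat 2. Albumin (Alb) was at -0.10 ± 0.14 and did not pass the limma adjusted p (0.228). Ambp, the precursor of alpha-1-microglobulin, was at -0.90 ± 0.11, and Igf1, the growth hormone effector, at -0.47 ± 0.16.

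Of 34 measured acute phase genes and chemokines, 3 were called lower and 1 higher. In the lower direction 19 passed the adjusted p alone and in the higher 2, where 24.9% and 20.7% of all genes did. Hp, haptoglobin, had -1.03, -0.85, -1.15 and -1.18, and was not called with the scanner ratio (-0.78). Nfkbia, the inhibitor of NF-kappaB, had -1.45, -1.05, -1.39 and -1.37 (mean -1.32, adjusted p = 1.29e-05), and complement C3 was at -0.92 ± 0.07. A second Nfkbia sequence gave -0.79, -0.65, -0.71 and -0.67, nearer to 0. The 4 rats lay close together for these. Cxcl1, a chemokine that attracts neutrophils, had 2.91, 1.05, 0.35 and 2.29 (mean 1.65 ± 1.16, adjusted p = 0.000368), high in rats 1 and 4 and lowest in rat 3.

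None of 18 measured p53 targets and damage response genes was called in either direction. The adjusted p alone was passed by 4 in the higher direction and 5 in the lower, where 20.7% and 24.9% of all genes did. Cdkn1a, which encodes the cell cycle inhibitor p21, had -0.07, 0.17, -0.64 and -1.19, highest in rat 2 and lowest in rat 4. Ccng1, cyclin G1, had 0.05, 0.16, -0.14 and -0.23 (limma adjusted p = 0.508), and Mdm2, the p53 ubiquitin ligase, was at 0.02 ± 0.06. Ddb2, a damage recognition subunit, had 0.36, 0.43, 0.47 and 0.60, above 0 in all rats. Of 18 measured DNA repair genes none was called, and 14 lay above 0. The adjusted p alone was passed by 10 of them in the higher direction and 3 in the lower, against the same shares of all genes. Fen1, the flap endonuclease of replication and repair, had 0.65, 0.99, 0.70 and 0.71.

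Of 26 measured genes of replication and the cell cycle, 23 lay above 0, 1 was called higher and none lower. In the higher direction 10 passed the adjusted p alone and in the lower 1, where 20.7% and 24.9% of all genes did. Mcm3, a subunit of the replicative helicase, had 1.03, 1.22, 1.00 and 0.87 (mean 1.03, adjusted p = 4.08e-05), and Mcm6, another subunit, 0.96, 1.14, 0.91 and 0.79, just under the fold limit. Mcm3 was not called without rat 2 (0.97). Cdk1, the mitotic kinase, had -0.41, 0.95, 1.36 and 0.39, and Rrm2, a ribonucleotide reductase subunit, -0.72, 0.91, 0.81 and -0.34. Rats 2 and 3 were highest for both genes and rat 1 lowest, as they were for the list medians of 0.07, 0.46, 0.47 and 0.19. Of 18 measured markers of altered hepatic foci, 4 were called higher, the Akr7a3, Gstp1, Gpx2 and Nqo1 already given, which the lists share. Ggt1, the classic enzyme marker of such foci, was at 0.16 ± 0.14 and Afp, alpha-fetoprotein, at -0.06 ± 0.13.

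**Figure D2:**
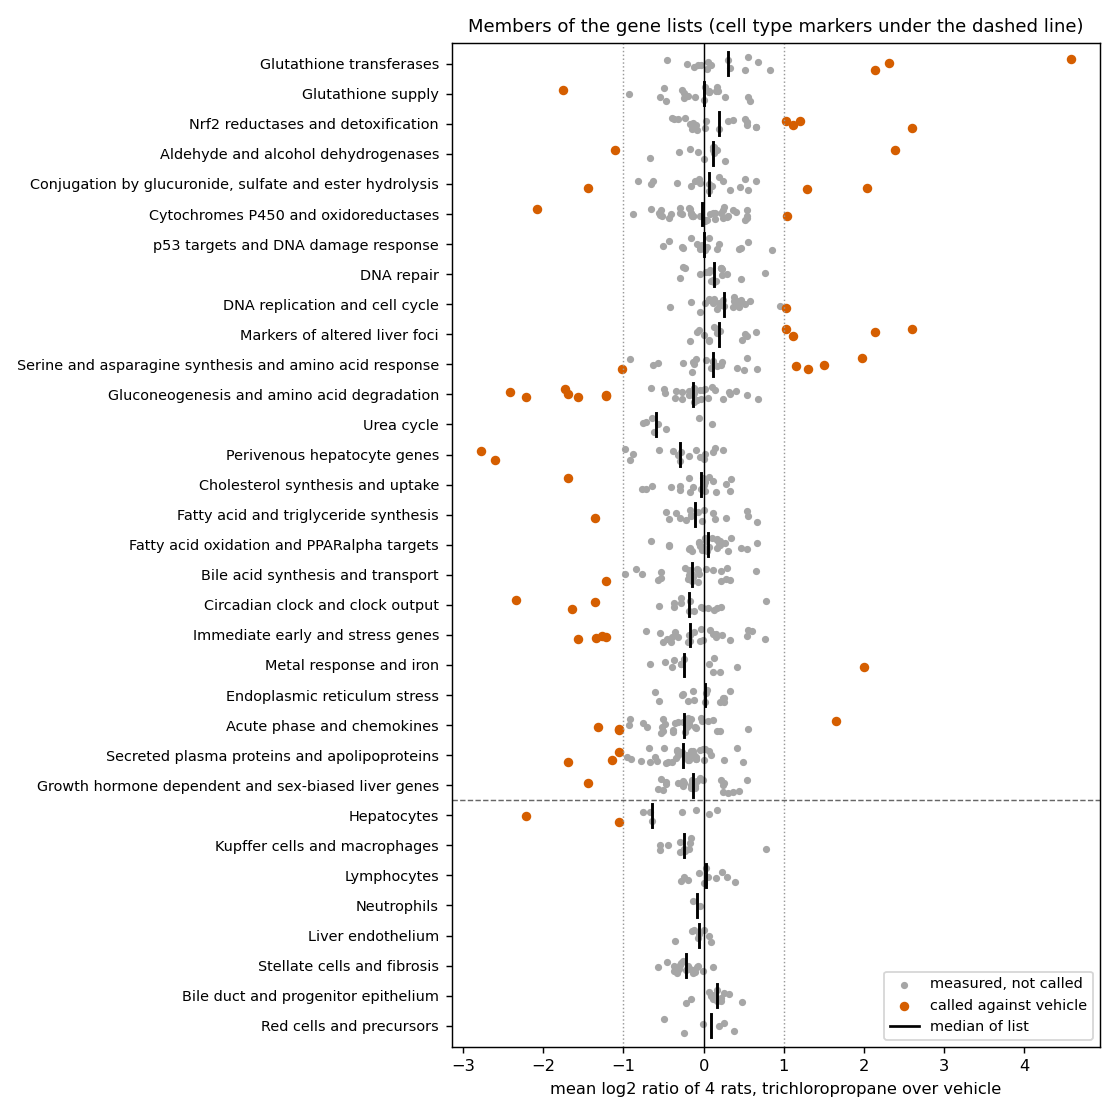
Mean log2 ratio of trichloropropane over vehicle in 4 rats (x axis) for the measured members of each gene list; orange points were called, grey points were not, and the black bar is the median of the list. Called members stand out singly in lists whose medians stay close to 0, and the medians of the urea cycle (-0.60) and of hepatocyte markers (-0.65) are the lowest; lists share some genes.

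The spread between the 4 rats was uneven across genes. The SD over rats had a median of 0.08 over all genes, and 60 genes (0.517%) exceeded 0.8, a limit set for description. With the scanner ratio 138 genes did, and leaving out 1 rat gave between 43 and 75. Of the 60 genes, 17 were called lower, 2 higher and 41 not at all. Rat 2 was highest in 42 of the 60, against 27.4% of all genes, and rat 4 lowest in 37, against 27.9% of all genes. Rats 3 and 4 were the lowest pair in 31 of the 60 (24.4% of all genes) and the highest pair in 10 (21.2%).

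The widest gene with a symbol was Zfp354a, a zinc finger gene first described in rat kidney, with -0.42, 0.20, -3.26 and -2.79 (mean -1.57 ± 1.72, adjusted p = 0.0099). Tsku, a secreted protein made by hepatocytes, had -0.50, -0.20, -2.44 and -3.41 (mean -1.64 ± 1.54, adjusted p = 0.000812). Noct, nocturnin, a protein of rhythmic expression in liver, had -1.69, -0.59, -3.33 and -3.74 (mean -2.34 ± 1.46, adjusted p = 0.000928). In each, rats 3 and 4 were far below rats 1 and 2. Zfp354a was not called without rat 3 (limma adjusted p = 0.12) or rat 4 (adjusted p = 0.0904). Neither Zfp354a nor Tsku was called when these 4 arrays were fitted alone (limma adjusted p = 0.0877 and 0.0582). A second Tsku sequence gave the same order of rats.

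Tat, tyrosine aminotransferase, a classic glucocorticoid-induced enzyme, had -1.49, -0.81, -3.14 and -3.42 (mean -2.21 ± 1.26, adjusted p = 9e-05). Insig1, which retains the sterol regulatory complex in the endoplasmic reticulum, had -0.83, -0.27, -2.61 and -3.06 (mean -1.69 ± 1.35, adjusted p = 0.00107). Lpin1, a phosphatidate phosphatase, had -0.54, -0.35, -2.15 and -2.39 (mean -1.36 ± 1.06). Again rats 3 and 4 were low and rats 1 and 2 nearer to 0. Of 4 Lpin1 sequences, however, 1 gave -2.23, -1.67, -2.75 and -2.68, low in every rat. Rag1, a recombinase of lymphocytes, had -0.66, -0.22, -2.47 and -2.71, and was not called without rat 3 (-1.20) or rat 4 (-1.12). Cyp7a1, the rate-limiting enzyme of bile acid synthesis, had -0.22, 0.42, -1.99 and -2.14, a mean of -0.98 just short of 2-fold. Without rat 1 or rat 2 it was called (-1.23 and -1.45), as it was with median centring (-1.51).

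Other wide genes had another order. Onecut1, a hepatocyte transcription factor, had -0.98, -2.84, -0.26 and -2.37, low in rats 2 and 4, and was not called without rat 2 (-1.21) or rat 4 (-1.36). Bcl6, a transcriptional repressor that follows growth hormone, had -0.09, 0.39, -2.49 and 0.18, so rat 3 alone was low. Hmga1, a chromatin protein, had -2.48, -1.86, -0.47 and -2.17, with rat 3 nearest to 0. A second Hmga1 sequence gave 0.18, 0.22, 0.25 and 0.25, above 0 in every rat, so the decrease was seen on 1 of 2 sequences. The vehicle channel of the second sequence was above background in 3 of 4 rats. Osgin1, an oxidative stress growth inhibitor, had -0.16, -0.60, 1.97 and 1.38, and the mitochondrial carrier Slc25a30 had 0.34, -1.07, 2.09 and 1.15, both highest in rat 3 and lowest in rat 2. Neither was called with 4 rats, but both were called higher without rat 2 (1.06 and 1.19). Pbsn, a lipocalin, had -1.75, 0.18, 0.33 and -1.05, and Slc25a32, the mitochondrial folate carrier, 0.01, 0.21, -1.40 and -1.61. Pbsn was low in rats 1 and 4, and Slc25a32 in rats 3 and 4; Slc25a32 was called with median centring (-1.20). A second Slc25a32 sequence, above background in every rat, gave -0.06, -0.18, -0.15 and 0.07, without the low values of rats 3 and 4.

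Of 18 measured genes of fatty acid and triglyceride synthesis, Lpin1 was the 1 called, and 5 were among the wide genes. Fasn, fatty acid synthase, had 0.05, 0.71, -0.96 and -1.69. Acly, ATP citrate lyase, had 0.22, 0.97, -0.47 and -1.36, and Elovl6, a fatty acid elongase, 0.35, 1.07, -0.67 and -1.42. Pnpla3, a lipase regulated with them, had 0.93, 2.37, 0.18 and -0.80. Rat 2 was highest and rat 4 lowest in all 4 genes, and their means lay between -0.47 and 0.67. With median centring Fasn was called lower (-1.10). Among 21 measured cholesterol genes Insig1 was the 1 called. Sqle, squalene epoxidase, had -0.50, -0.39, -0.92 and -1.08, again highest in rat 2 and lowest in rat 4.

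Of 18 measured genes of the circadian clock and its output, the 3 called were Noct, Tsku and Lpin1, all lower. Among the core clock genes, Bmal1 had -0.17, -0.22, -0.08 and -0.26, Nr1d1 was at -0.03 ± 0.07 and Per2 at -0.28 ± 0.26. Dbp, an output factor, was at 0.22 ± 0.16. Per1, a core clock gene that also responds to glucocorticoids, varied more, with 0.73, 0.16, 0.89 and 1.36, lowest in rat 2 and highest in rat 4.

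Immediate early and stress genes had 4 called decreases of 30 measured, Zfp354a among them. Sgk1, a serum and glucocorticoid kinase, had -1.46, -0.73, -1.33 and -1.87 (mean -1.35, adjusted p = 0.000397). Zfp36, an mRNA-decay factor, had -1.24, -0.84, -1.37 and -1.63, and Dusp1, a MAP kinase phosphatase, -1.57, -0.75, -1.16 and -1.38. Rat 2 lay nearest to 0 for all 3. Egr1, a usual early gene, was at 0.16 ± 0.44.

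In contrast, Igfbp1, an insulin-suppressed binding protein of growth factors, had -1.77, -1.55, -1.84 and -1.59 (mean -1.69 ± 0.14, adjusted p = 0.000767), a narrow spread, while its pooled SD in the other 5 compounds was 0.85. Slc27a5, a bile acid CoA ligase, had -0.90, -1.05, -1.53 and -1.39 (mean -1.22, adjusted p = 2.63e-09), the 1 called member of 26 measured bile acid genes. Mup4l3, of the major urinary protein family, had -1.52, -2.11, -1.56 and -1.25 (adjusted p = 1.86e-05). All rats were low for these 3 genes, but close copies of the last family cannot be told apart on the array. None of 28 measured genes of fatty acid oxidation and none of 15 of endoplasmic reticulum stress was called, with medians of 0.05 and 0.01.

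**Figure D3:**
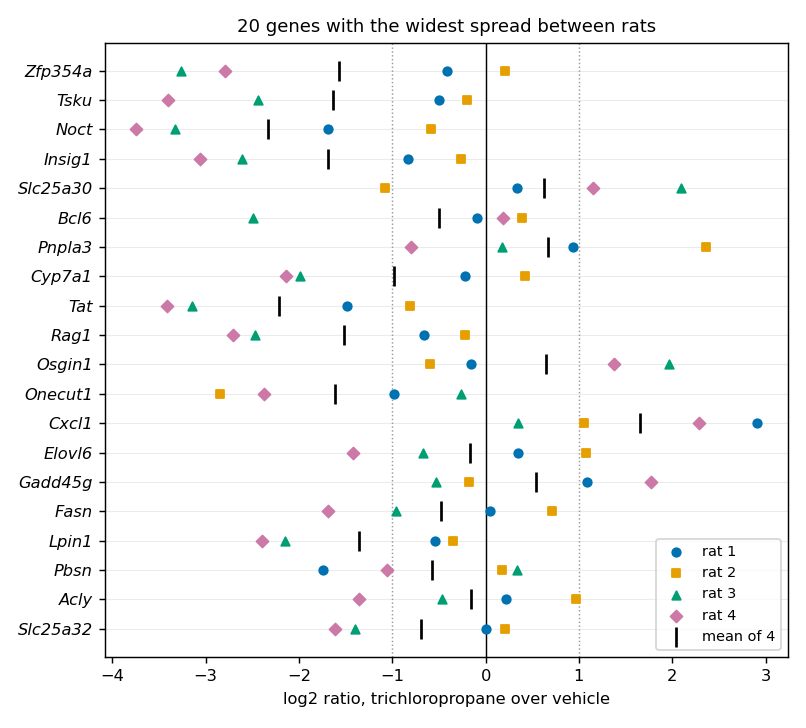
Log2 ratio of trichloropropane over vehicle (x axis) in each of 4 rats for the 20 genes with the largest SD over rats among genes above background in both channels on all 4 arrays; markers are rats and black bars their means. Rats 3 and 4 form the lowest pair in 13 of the 20 genes and the highest pair in 2, and 9 of the 20 were called.

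Markers of cells other than hepatocytes were not called in any list, where only 0.293% of all genes were called higher and 0.638% lower. The lists held 11 measured Kupffer cell and macrophage, 11 lymphocyte, 2 neutrophil, 8 endothelial, 19 stellate cell, 14 bile duct and 6 red cell genes. Neither neutrophil gene was above background in the treated channel on all 4 arrays, and 11 of the 13 listed were not analysed here. The Kupffer cell medians were -0.13, -0.48, -0.25 and -0.03 in rats 1 to 4, lowest in rat 2 and nearest to 0 in rat 4. Stellate cell genes lay below 0 in 18 of 19 cases with a median of -0.22. The adjusted p alone was passed by 10 of them in the lower direction and 1 in the higher. Bile duct and progenitor genes lay above 0 in 12 of 14 cases with a median of 0.16, and 5 passed it higher and 0 lower. Kupffer cell genes had 5 passing lower and 1 higher, and lymphocyte genes 3 lower and 4 higher. Over all genes, 24.9% passed lower and 20.7% higher. Cd14, a receptor for bacterial endotoxin, was the 1 member of the Kupffer cell list with a mean above 0, at 0.91, 0.35, 0.96 and 0.91. The other 10 had means below 0, and the list median was -0.24. The hepatocyte list had a median of -0.65, with Tat and Serpina1 called lower, and its rat medians were -0.61, -0.31, -0.59 and -0.68, nearest to 0 in rat 2. The part of these cell types in the other results was not tested.

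The second question was which genes differed between trichloropropane and the mean of the other 5 compounds, a contrast in which a dye effect alike on all arrays cancels. This contrast called 48 genes (0.414%), 17 higher (0.147%) and 31 lower (0.267%), and 29 had a usable symbol. Of the 108 genes called against vehicle, 22 were called here too in the same direction, 6 of the 34 higher and 16 of the 74 lower. The other 26 of the 48 were not called against vehicle. Differences between vehicle pools stay in this contrast, since tetracycline hydrochloride had a vehicle of its own. With the scanner ratio 30 genes were called higher and 79 lower. Limma treat, which tests against 2-fold, called 0, and 17 genes had an unadjusted p under 0.05 in it. The main limma test, which tests against no difference, gave 4808 genes with an unadjusted p under 0.05.

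Gstp1 was higher by 1.12 (adjusted p = 3.35e-05) and Ugt2b7 by 1.19 (adjusted p = 1.34e-06) than the mean of the others, at 2.14 ± 0.59 and 2.04 ± 0.49 with trichloropropane. With 1,2-dichlorobenzene they stood at 4.64 ± 0.39 and 4.12 ± 0.19, and with the remaining 4 compounds their means ran from -0.28 to 0.35 and from -0.06 to 0.17. Ugt2b7 was not called when tetracycline hydrochloride was left out (0.96) or with median centring (0.88). Gsta3 differed by 0.90, short of 2-fold. Its mean was 4.99 ± 0.37 with 1,2-dichlorobenzene, 4.22 ± 0.69 with 1-amino-2-methylanthraquinone and 5.25 ± 0.06 with 3-(4-chlorophenyl)-1,1-dimethylurea. Gpx2, called higher against vehicle, was lower than the mean of the others (log2 difference -0.95, limma adjusted p = 4.71e-05, under the fold limit), and 4 of the 5 had means between 2.30 and 2.78.

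Mt1 was higher by 1.44 (adjusted p = 0.000776), at 1.99 ± 0.75 with trichloropropane, against 2.11 ± 0.17 with 1,2-dichlorobenzene and -0.87 ± 0.28 with hexachloroethane. Cxcl1 was higher by 1.34 (adjusted p = 0.0072) and was not called without rat 1 (0.92). Rgs3, a regulator of G-protein signalling also called higher against vehicle, was higher by 1.64 (adjusted p = 0.00165), with 1.38, -0.12, 1.44 and 1.63 in rats 1 to 4. Rat 2 alone lay below 0. Gadd45g, a growth arrest gene, was higher by 1.81 (adjusted p = 0.00296), with 1.08, -0.18, -0.53 and 1.78 in the 4 rats, against means between -2.19 and -0.44 under the other compounds. Rats 1 and 4 were high and rats 2 and 3 below 0.

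Car3, Dhrs7 and Hao2 were closer to vehicle with trichloropropane than with any of the other 5 compounds. Car3, a carbonic anhydrase abundant in male rat liver, had -0.53, -0.58, -0.45 and -0.31, against means between -2.92 and -1.10 (difference 1.39, adjusted p = 9.47e-05). Hao2, a peroxisomal hydroxyacid oxidase, had 0.02, -0.13, 0.39 and 0.05, against means between -1.85 and -0.50 (difference 1.15, adjusted p = 3.6e-06). Dhrs7, a short-chain dehydrogenase, had -0.95, -0.48, 0.04 and 0.36, against means between -2.55 and -1.37 (difference 1.59, adjusted p = 0.000322). Every rat of trichloropropane lay above the highest of these means for all 3 genes. The second Dhrs7 sequence gave 0.18, 0.30, 0.43 and 0.52, on the other side of 0 on average, and with probes of a gene averaged Dhrs7 was not called (0.91).

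Cyp1a1, the main target of the aryl hydrocarbon receptor, had 0.28, 1.41, 0.38 and 0.01, against means between 0.01 and 5.01. Its treated channel was above background in 2 rats and its vehicle channel in 1, so these ratios are only partly measured. Cyp1a2, of the same family, had -0.64, -1.20, -0.89 and -0.79, against means between -1.19 with 1,2-dichlorobenzene and 2.46 with 1-amino-2-methylanthraquinone (difference -1.63, adjusted p = 3.8e-07). Grin2c, a subunit of the NMDA glutamate receptor, had 0.74, 0.47, 0.73 and 0.52 with its vehicle channel above background in 2 rats, against 3.81 ± 0.53 with hexachloroethane and 0.07 ± 0.17 with tetracycline hydrochloride (difference -1.96, adjusted p = 3.33e-07). Cyp1a2 was thus low in every rat, and Grin2c slightly above 0. Cd36, a fatty acid receptor, had 0.36, -0.39, -0.72 and -0.41, against means between 0.68 and 2.52 (difference -1.79, adjusted p = 6.88e-06).

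Tsku, Noct, Tat and Igfbp1 were lower both against vehicle and against the other compounds. Tsku differed by -1.83 (adjusted p = 0.00128), with means between -0.68 and 1.38 under the other compounds. Igfbp1 differed by -1.48 (adjusted p = 0.00737), with means between -0.78 and 0.45. Noct differed by -1.70 (adjusted p = 0.026) and Tat by -1.57 (adjusted p = 0.00714). Neither was called without rat 3 (-1.37 and -1.26) or rat 4 (-1.23 and -1.17), the rats with the lowest values. Noct was not called either when tetracycline hydrochloride was left out (-1.45).

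**Figure D4:**
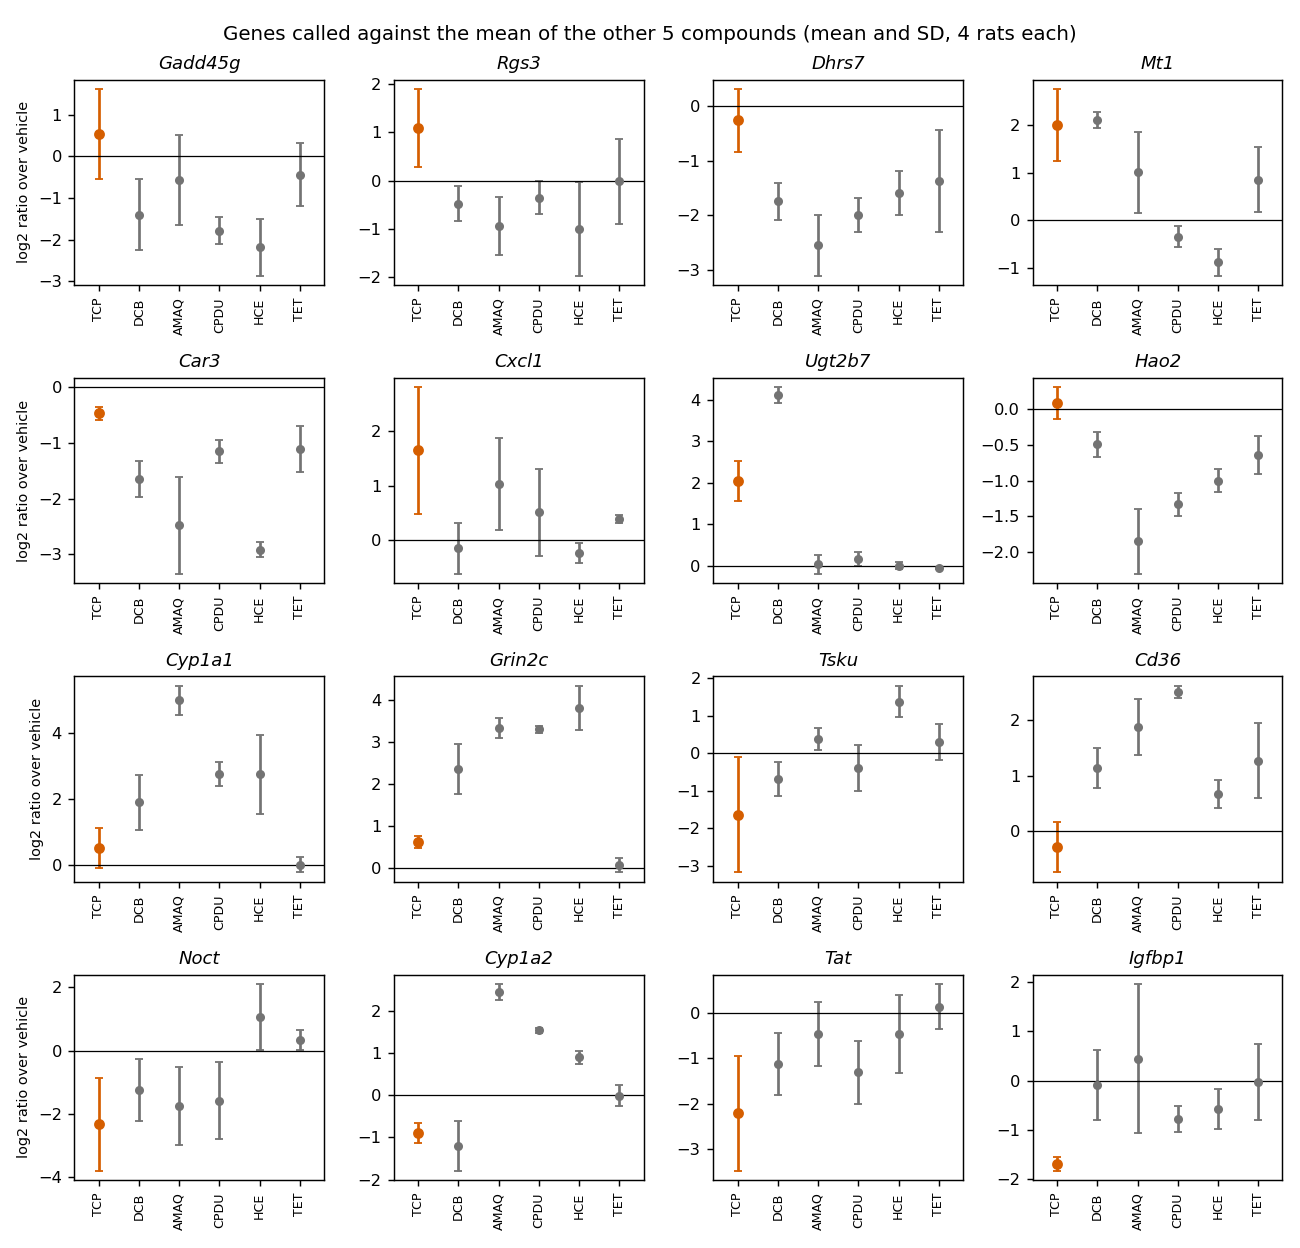
Log2 ratio over vehicle (y axis, scaled per panel) for the 16 genes with the largest called differences between trichloropropane (TCP, orange) and the mean of the other 5 compounds (grey: DCB, 1,2-dichlorobenzene; AMAQ, 1-amino-2-methylanthraquinone; CPDU, 3-(4-chlorophenyl)-1,1-dimethylurea; HCE, hexachloroethane; TET, tetracycline hydrochloride); points are means and bars SD of 4 rats. Of the 16 genes 8 are higher and 8 lower with trichloropropane than the mean of the others. Among the 8 higher, 1,2-dichlorobenzene lies above trichloropropane for Ugt2b7 and, by less, for Mt1.

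Called genes outside the naming rule were 3 higher with a symbol (1.00 to 1.15), 10 lower with a symbol (-1.57 to -1.03), and 44 without a usable symbol, 11 higher (1.09 to 1.96) and 33 lower (-2.93 to -1.01).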

How the data were processed

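Per the submitters' processing notes, Agilent Feature Extraction 9.1.3.1 was used on the scanned images. The deposited scanner files hold mean signals and median backgrounds of both dyes as linear intensity, and a log10 ratio of Cy5 over Cy3, per the file headers. The deposited series table holds a log2 ratio of treated over vehicle. How it was scaled is not given in the sources used here; on the 4 arrays its medians ran from 0.05 to 0.06, and it correlated with the scanner ratio between 0.75 and 0.98.

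Signals were corrected with normexp (offset 50, which pulls ratios of dim probes towards 0) and scaled by loess within arrays in limma 3.58.1 (R 4.3.3), leaving out control and outlier spots. Ratios were turned to treated over vehicle. Probes entered the fit (16085) where either dye passed the background test on all 4 arrays of at least 1 compound, and the brightest stood for its gene. Names came from the array design through a RefSeq table (GRCr8): 6166 probes matched a current symbol, 1916 an older one, 621 a gene ID and 902 a RefSeq record, while 12214 matched nothing and 81 stayed under the name of the array design. All 24 arrays were fitted with lmFit and eBayes (18 residual and 2.92 prior degrees of freedom). The fit was tested on simulated data. The members and lists were chosen with earlier results of these data known.

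Named were the 15 largest increases and decreases with 1 sign in all rats, called list members with up to 6 uncalled ones per list, the 20 widest genes, and the 8 largest differences each way from the other compounds. Provisional names were left out. P-values of the main fit rest on the spread between rats within a compound, pooled over all 24 arrays. They do not measure the spread of the 4 trichloropropane rats alone.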

Additional observations from a re-analysis of the deposited data

Results flagged for a closer look

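In 5 of 69 named genes, 1 rat lay apart from the other 3 by more than Dixon's 95% limit for 4 samples, where chance gives about 1 in 20. Rat 1 stood apart for Oat (-2.13, the nearest to 0), for G6pc1 (-1.51, the lowest) and for Serpina1 (-1.22, the lowest). Rat 3 stood apart for Bcl6 (-2.49), and rat 2 for Rgs3 (-0.12), the 1 rat below 0.

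Of the genes with a symbol called by the limma contrast between trichloropropane and the mean of the other 5 compounds, the 8 largest log2 differences each way are given here. Trichloropropane was higher for Gadd45g (1.81), Rgs3 (1.64), Dhrs7 (1.59), Mt1 (1.44), Car3 (1.39), Cxcl1 (1.34), Ugt2b7 (1.19) and Hao2 (1.15). It was lower for Cyp1a1 (-1.97), Grin2c (-1.96), Tsku (-1.83), Cd36 (-1.79), Noct (-1.70), Cyp1a2 (-1.63), Tat (-1.57) and Igfbp1 (-1.48). The Cyp1a1 and Grin2c ratios were only partly measured, with vehicle above background in 1 and 2 rats and treated Cyp1a1 above it in 2. Slide, scan day and vehicle pool cannot be told apart from the compound in these differences.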

How the results depend on the processing

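Against vehicle, 34 genes were called higher and 74 lower. The scanner ratio called 101 and 188, the authors' series table gave 93 and 189, the adjusted p alone 2407 and 2892, and treat 11 and 5, while median centring called 410 lower. Against the other compounds, 17 were called higher and 31 lower, against 30 and 79 with the scanner ratio, 32 and 81 with the authors' series table, 1766 and 1782 by the adjusted p alone, and 0 and 0 with limma treat, where 17 genes had an unadjusted p under 0.05. Wide genes numbered 60, and 138 and 135 with the scanner ratio and the authors' series values. Leaving out each rat in turn gave 33 to 38 higher and 59 to 93 lower against vehicle, 13 to 21 higher and 23 to 41 lower against the others, and 43 to 75 wide genes. Of the 108 genes called against vehicle, 88 to 104 were also called without 1 rat, and none changed sign there. Averaging the probes of a gene called 27 higher and 65 lower, with Psat1, Gpx2, Aldh1b1, Fmo5, Mcm3, Cebpb, Serpina1 and Apoa4 no longer called. Among genes above background in both channels, 1 of the 108 changed sign. The cause of these shifts was not tested, apart from the fold rules of treat and of the p alone.

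With the replicate number as a block, 34 were called higher and 74 lower against vehicle, the same 108 genes, and 17 and 33 against the others. Deviations of same-numbered rats of different compounds correlated unevenly (60 pairs, r from -0.26 to 0.39, median 0.04, 21 above 0.1). Rats of unlike number were not compared, so whether the numbers do more than name rats was not tested. Among values that were not called, the sign changed for Bcl6 without rat 3 (0.16), for Elovl6 (0.25) and Acly (0.24) without rat 4, and for Gadd45g against vehicle with median centring (-0.07). The 4 arrays and 1 vehicle pool limit every value.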
